A study of Mus musculus with 12 samples.

Results

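The 41 genes described here encode the proteins that copy DNA, supply its building blocks and switch these genes on. They were given as a list of 41 gene symbols, and each symbol matched 1 Ensembl identifier of the count table, which held 55414 identifiers. All 41 passed the filter on low counts and were among the 14435 genes tested. The libraries were made from the mouse preadipocyte line 3T3-L1, labelled as mesenchymal stem cells, carrying either an FHL2-GFP or a CTRL-GFP construct. FHL2 belongs to a family of LIM domain proteins that bind other proteins as cofactors. The 4 groups of 3 libraries each were FHL2 cells at day 2 (genotype label FHL2 overexpression), FHL2 cells at day 0, control cells at day 2 (genotype label Control) and control cells at day 0. At day 0 the cells had passed confluence. By day 2 they had been in medium with fetal bovine serum, dexamethasone at 1 uM, isobutylmethylxanthine at 0.5 mM and insulin at 170 nM, the usual cocktail for adipogenic induction. All 4 groups therefore carry a GFP construct, and no group was left uninduced to day 2, so time in culture cannot be told apart from the cocktail. The labels name no vector or promoter and do not say whether each construct was in a pool of cells or in a clone.

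A cell copies its genome by licensing origins, unwinding DNA and building new strands. Orc1 and Orc6 belong to the origin recognition complex, which works with Cdc6 and Cdt1 to load the ring of Mcm2 to Mcm7 onto DNA. Cdc45 and the GINS proteins turn that ring into the active helicase, and Mcm10 takes part in its start. Polymerase alpha and its primase lay down primers, polymerases delta and epsilon extend them, and the clamp Pcna, set in place by the Rfc clamp loader, holds the polymerases on DNA. Confluent 3T3-L1 preadipocytes are growth arrested, and the induction cocktail is known to send them back into the cell cycle for a limited number of divisions, called mitotic clonal expansion, before they turn into adipocytes. E2F factors, E2f1 among them, drive many of these genes when a cell enters S phase, and pocket proteins of the Rb family hold them back.

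Promoter windows of 300 bases, from 250 bases before to 50 bases after the start of the gene, were available from RefSeq (build GRCm38.p6) for 34 of the 41 genes. Prim2, Gins1, Gins2, Gins4, Pole, Mcm4 and Rfc2 had none in that table. They were searched on both strands for the E2F words TTTCCCGC, TTTCGCGC, TTTGCCGC and TTTGGCGC, whose other-strand forms are GCGGGAAA, GCGCGAAA, GCGGCAAA and GCGCCAAA. At least 1 word stood in a window of 14 of these 34 genes (41.2%), against 704 of all 27025 genes with a window (2.6%). The word CCAAT, or ATTGG on the other strand, stood in 21 of the 34 (61.8%), against 11096 of the 27025 (41.1%). The members' windows also had a higher GC content, with a median of 59.2% against 52.7% for all windows. A match is a description and not a binding site. The windows of the 5 genes below are printed because these genes carry the day changes described later. Mcm5 and Cdc6 were higher at day 2, Pola1 and Rfc1 were lower, and Mcm6 holds the most words of the 34. Capitals mark E2F words.
Mcm5 promoter, chr8:75109259-75109558, plus strand: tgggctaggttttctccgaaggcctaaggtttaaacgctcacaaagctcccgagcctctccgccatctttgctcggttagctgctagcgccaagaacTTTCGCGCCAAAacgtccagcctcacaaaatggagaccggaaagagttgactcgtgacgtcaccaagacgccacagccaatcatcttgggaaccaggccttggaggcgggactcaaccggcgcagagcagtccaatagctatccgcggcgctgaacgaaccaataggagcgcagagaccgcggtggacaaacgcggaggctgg
Cdc6 promoter, chr11:98907901-98908200, plus strand: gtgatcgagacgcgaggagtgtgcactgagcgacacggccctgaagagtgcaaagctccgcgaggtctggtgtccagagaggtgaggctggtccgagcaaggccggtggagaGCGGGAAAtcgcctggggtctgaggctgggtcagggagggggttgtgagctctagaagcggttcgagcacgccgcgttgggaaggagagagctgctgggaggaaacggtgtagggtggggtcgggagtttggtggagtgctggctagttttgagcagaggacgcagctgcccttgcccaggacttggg
Mcm6 promoter, chr1:128359656-128359955, minus strand: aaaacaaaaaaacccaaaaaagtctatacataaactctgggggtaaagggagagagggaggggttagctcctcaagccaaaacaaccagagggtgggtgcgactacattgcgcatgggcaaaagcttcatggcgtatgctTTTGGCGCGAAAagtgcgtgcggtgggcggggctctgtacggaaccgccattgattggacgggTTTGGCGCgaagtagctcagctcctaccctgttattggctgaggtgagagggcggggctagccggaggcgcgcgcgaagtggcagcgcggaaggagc
Pola1 promoter, chrX:93632106-93632405, minus strand: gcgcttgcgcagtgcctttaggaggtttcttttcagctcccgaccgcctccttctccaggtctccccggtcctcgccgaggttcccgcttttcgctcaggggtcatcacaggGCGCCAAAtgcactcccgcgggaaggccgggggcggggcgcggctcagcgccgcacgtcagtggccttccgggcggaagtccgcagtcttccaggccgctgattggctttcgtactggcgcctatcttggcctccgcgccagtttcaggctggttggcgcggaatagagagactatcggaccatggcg
Rfc1 promoter, chr5:65335590-65335889, minus strand: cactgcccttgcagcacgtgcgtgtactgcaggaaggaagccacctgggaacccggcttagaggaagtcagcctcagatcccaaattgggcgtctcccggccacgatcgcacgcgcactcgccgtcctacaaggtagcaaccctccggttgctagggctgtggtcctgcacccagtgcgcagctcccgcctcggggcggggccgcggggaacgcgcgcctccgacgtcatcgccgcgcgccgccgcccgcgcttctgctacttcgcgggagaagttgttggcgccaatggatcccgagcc
Mcm5 held 2 overlapping words, 153 and 149 bases upstream of the start site. The word in Cdc6 lay 138 bases upstream. Mcm6 held 3 words, 110, 106 and 47 bases upstream, the farther 2 of which overlapped. Pola1 also held a word 138 bases upstream, while Rfc1 held none of the searched E2F words, which says only that these letters are not in its window. The 14 members with a word were Orc1, Cdc6, Cdt1, Mcm3, Mcm5, Mcm6, Mcm7, Gins3, Pola1, Pold1, Pole2, Rfc3, Lig1 and Uhrf1.

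The libraries held 10047708 to 21872139 counts each. Genes with at least 1 count numbered 12689 to 16131 in day 2 libraries and 17977 to 18811 in day 0 libraries, and mitochondrial transcripts took 2.43 to 2.95% of counts in day 2 libraries and 3.5 to 4.48% in day 0 libraries. These shares moved with the day in both lines, and their part in the results below was not tested. The biological coefficient of variation, the spread between libraries of a group as a share of the level, was 0.39 over the day 2 libraries and 0.12 over the day 0 libraries. Fhl2 itself had 18.7, 9.92 and 22.6 CPM (counts scaled to library size with TMM factors) in FHL2 cells and 13.9, 14.2 and 21.0 CPM in control cells at day 2. At day 0 it had 67.4, 58.8 and 62.0 CPM in FHL2 cells and 58.9, 61.0 and 63.6 CPM in control cells. The groups overlapped at both days, with log2 differences of 0.07 (adjusted p = 0.914) at day 2 and 0.04 (adjusted p = 1) at day 0, and the labels do not say whether reads of the construct map to the mouse gene, so every FHL2 library below is called so by its label. The labelled cell type was checked on 9 fibroblast and preadipocyte markers, all of them counted, whose summed level was 19049.0 to 19518.5 CPM in FHL2 cells at day 2, 23799.4 to 24126.5 CPM in FHL2 cells at day 0, 18985.2 to 21855.3 CPM in control cells at day 2 and 23620.2 to 25408.7 CPM in control cells at day 0. The 6 macrophage and blood markers summed to at most 13.6 CPM in any library, the 5 endothelial markers to at most 3.95, the 5 epithelial markers to at most 1.51 and the 5 muscle markers to at most 5.13. Adgre1, Epcam and Myod1 had no count in any library. The blood markers moved with the day, at 0.277 to 4.36 CPM in FHL2 cells and 1.39 to 4.43 CPM in control cells at day 2, and 7.81 to 13.6 CPM in FHL2 cells and 7.24 to 8.15 CPM in control cells at day 0.

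Between the days, the replication genes moved in both directions, with more of them rising. In FHL2 cells 20 of the 41 rose by day 2 (48.8%), where 25.8% of all genes tested rose, and 6 fell (14.6%), where 30.2% of all genes fell. In control cells 18 rose (43.9%, against 26.3% of all genes) and 6 fell (14.6%, against 30.8% of all genes). The other 15 genes in FHL2 cells and 17 in control cells did not pass the test, an adjusted p under 0.05 over all genes tested. The median log2 change of the 41 genes was 0.44 in FHL2 cells and 0.41 in control cells, against medians over all genes of -0.11 and -0.14 in those lines. Mcm5 had the largest rise in FHL2 cells, at 3.45-fold, and Pold1 in control cells, at 3.17-fold, while Pola1 had the largest fall in both. The summed level of the 41 genes was higher in every day 2 library than in any day 0 library. The sums were 1720.4, 1875.0 and 2058.2 CPM in FHL2 cells at day 2, against 1359.1, 1317.7 and 1371.2 CPM in FHL2 cells at day 0. In control cells they were 1728.7, 1800.4 and 1828.7 CPM at day 2, against 1380.7, 1297.9 and 1325.1 CPM at day 0. In bulk RNA a larger share of cells in S phase and more transcript in each such cell cannot be told apart.

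**Figure D1:**
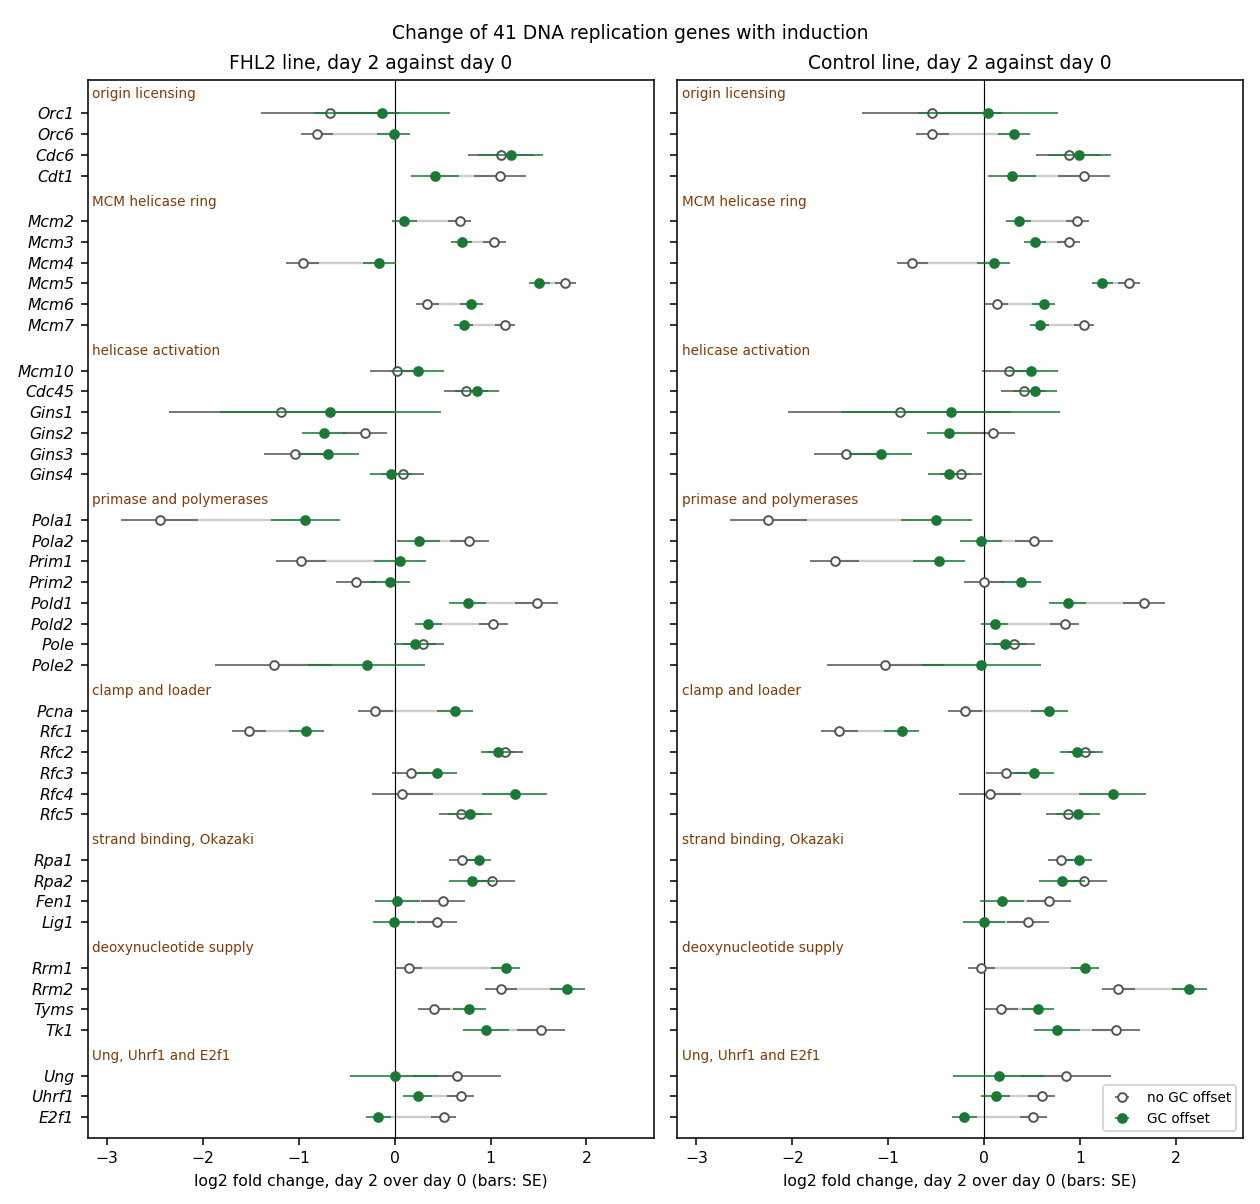
Log2 change of each of the 41 genes, day 2 against day 0, in FHL2 cells (left) and control cells (right), grouped by role, with bars of 1 standard error; open points are without and green points with the correction for GC content. Mcm5, Pold1 and Rrm2 lie to the right of 0 and Rfc1 to the left of 0 with both, while Rrm1, Pcna and Rfc4 lie near 0 without the correction and to the right of it with the correction.

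GC content of the transcripts moved with the day change across the whole table, so each change is given with and without a correction for it. Genes were split into 5 classes of equal size by GC content. Over the class with the lowest GC content (27.5 to 44.1%) the median log2 change was -1.68 in FHL2 cells and -1.85 in control cells, and over the class with the highest (55.5 to 78.3%) it was 0.68 in FHL2 cells and 0.73 in control cells. The replication genes spanned 41.5 to 60.7% GC with a median of 49.4%, close to the 49.8% of all genes. Their changes followed GC content as well, with Pearson's r of 0.676 and Spearman's rho of 0.68 in FHL2 cells and r of 0.688 and rho of 0.713 in control cells over the 41 genes, which share libraries and are not independent. The correction was an offset for each gene and library. It follows a smooth curve, on GC content, of the library's deviation from the mean of all 12 libraries. A GC effect that all libraries share is left in the levels. It took the medians of the 5 GC classes to between -0.13 and 0.07 in FHL2 cells and between -0.16 and 0.04 in control cells, and r over the 41 genes to 0.07 in FHL2 cells and -0.0122 in control cells. The offset also removes any true change that genes of like GC content share, and how much of the trend is technical was not tested. With the offset, 17 of the 41 genes rose in FHL2 cells (41.5%, against 20.3% of all genes) and 2 fell (4.88%, against 18.0%). In control cells 17 rose (41.5%, against 20.4% of all genes) and 2 fell (4.88%, against 17.5%). The number of genes that fell was thus 2 in each line with the offset and 6 without it. The median change with the offset was 0.25 in FHL2 cells and 0.36 in control cells, against -0.01 and -0.02 over all genes in those lines. All members called lower without the offset were among the 16 in the 2 GC classes under 48%.

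**Figure D2:**
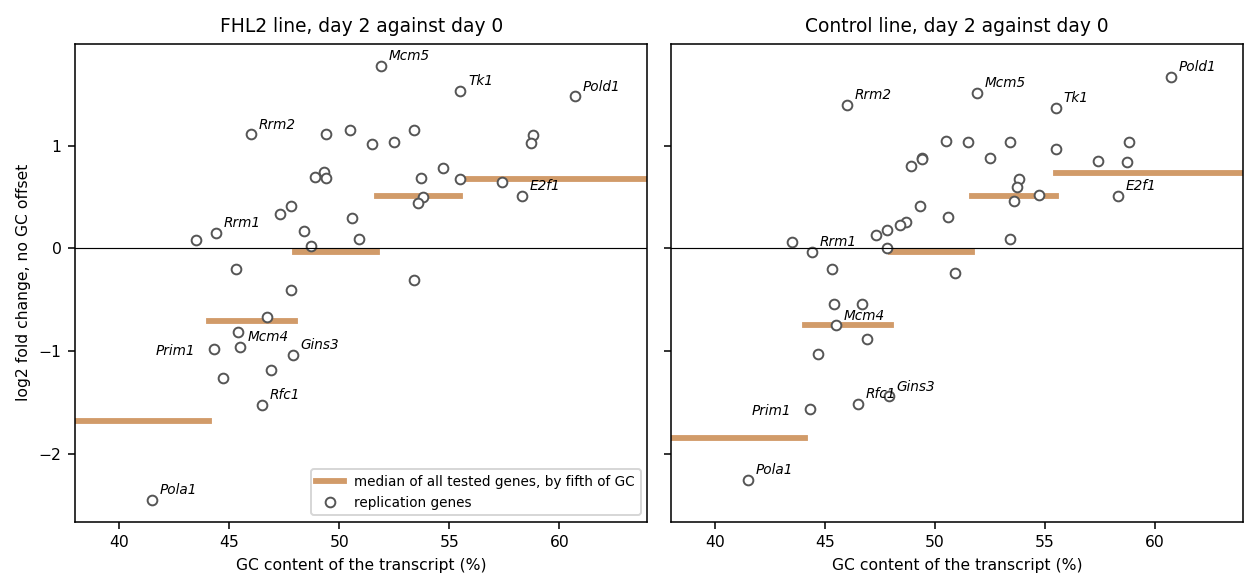
Log2 change between day 2 and day 0 of the 41 genes, plotted against the GC content of their longest coding transcript in percent, for FHL2 cells (left) and control cells (right), with the median change of all genes in each of 5 classes of GC content. Without the correction the genes rise with GC content, as the medians of all genes do, from -1.68 to 0.68 in FHL2 cells and from -1.85 to 0.73 in control cells.

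The calls that held in both lines, with and without the offset, came from every role but helicase activation and the last group of Ung, Uhrf1 and E2f1. Mcm3, Mcm5, Mcm7, Cdc6, Pold1, Rfc2, Rfc5, Rpa1, Rpa2, Rrm2 and Tk1 rose in all 4 readings, 11 of the 41 genes (26.8%, against 11.6% of all genes). Rfc1 alone fell in all 4, 1 of 41 (2.44%, against 9.19% of all genes). Of these, Mcm3, Mcm5, Mcm7, Pold1, Rfc2, Rpa1, Rrm2 and Rfc1 also kept their calls under every alternative tried, leaving out any 1 library included. Without the offset 17 genes rose in both lines (41.5%, against 22.6% of all genes) and 6 fell (14.6%, against 25.6%), and with it 16 rose (39.0%, against 16.5%) and 1 fell (2.44%, against 12.5%). Across the 41 genes the change in FHL2 cells and the change in control cells, which share no library, had Pearson's r of 0.969 and Spearman's rho of 0.961 without the offset and r of 0.928 and rho of 0.923 with it, as a description over genes that share depth and GC content.

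Among the licensing genes, Cdc6 rose in both lines, while Cdt1 rose and Orc6 fell in both lines only without the GC offset. Cdc6, an ATPase that works with the origin complex to load the MCM ring, had 13.2, 12.9 and 16.3 CPM in FHL2 cells at day 2, against 8.28, 5.47 and 5.89 CPM in FHL2 cells at day 0. In control cells it had 15.8, 24.6 and 9.20 CPM at day 2, against 11.1, 8.69 and 7.17 CPM at day 0. The days did not overlap in FHL2 cells but did in control cells, where the third day 2 library lay below the highest day 0 library. The log2 change of Cdc6 was 1.11 ± 0.34 (adjusted p = 0.0126) in FHL2 cells and 0.88 ± 0.34 (adjusted p = 0.0376) in control cells, and with the GC offset 1.21 ± 0.34 (adjusted p = 0.0106) and 0.99 ± 0.33 (adjusted p = 0.0306) in those lines. The call in control cells did not hold under every alternative: it was 0.94 (adjusted p = 0.0527) when only the control libraries were fitted and 0.52 (adjusted p = 0.216) without day 2 replicate 2, and also missed the threshold without day 0 replicate 2 (0.85, adjusted p = 0.102) or 3 (0.73, adjusted p = 0.138). It also missed it, at adjusted p values of 0.0502 to 0.0545, without day 2 replicate 1 of control cells or day 0 replicate 2 or 3 of FHL2 cells. In FHL2 cells it was 0.99 (adjusted p = 0.0576) without day 0 replicate 2 and 1.03 (adjusted p = 0.051) without day 0 replicate 3. With the offset the call was lost in control cells without day 2 replicate 2 (0.63, adjusted p = 0.168), day 0 replicate 2 (0.96, adjusted p = 0.0919) or day 0 replicate 3 (0.85, adjusted p = 0.122), and in FHL2 cells without day 0 replicate 2 (1.09, adjusted p = 0.0535). Cdt1, the partner of Cdc6 in loading the ring, had 21.8, 49.6 and 42.2 CPM in FHL2 cells at day 2, against 19.1, 15.4 and 18.4 CPM at day 0. Control cells had 30.3, 34.0 and 49.0 CPM at day 2, against 16.3, 19.0 and 19.8 CPM at day 0. Every day 2 library lay above every day 0 library of its line, and Cdt1 rose by 1.10 ± 0.27 (adjusted p = 0.00284) in FHL2 cells and 1.04 ± 0.27 (adjusted p = 0.00427) in control cells on the log2 scale. Cdt1 has a GC content of 58.8%, and with the offset its change was 0.42 ± 0.25 (adjusted p = 0.205) in FHL2 cells and 0.29 ± 0.25 (adjusted p = 0.383) in control cells. Orc6, the smallest subunit of the origin complex, had 20.9, 24.7 and 27.7 CPM in FHL2 cells at day 2, against 46.5, 38 and 44.3 CPM at day 0, and all day 2 libraries were lower. Control cells had 30.0, 27.5 and 20.9 CPM at day 2, against 41.1, 37.3 and 35.9 CPM at day 0, again without overlap. Its log2 change was -0.81 ± 0.17 (adjusted p = 0.00109) in FHL2 cells and -0.54 ± 0.17 (adjusted p = 0.0153) in control cells, and with the offset it was -0.01 ± 0.17 (adjusted p = 0.983) and 0.31 ± 0.17 (adjusted p = 0.168). The fall in control cells missed the threshold without day 2 replicate 3 (-0.34, adjusted p = 0.0995) or day 0 replicate 1 (-0.49, adjusted p = 0.0599). With an offset on both GC content and transcript length, Orc6 was still called lower in FHL2 cells, at -0.4. In control cells that offset gave 0.01, which was not called. Orc1, the largest subunit, lay at 0.283 to 5.06 CPM at day 2 and 2.80 to 7.23 CPM at day 0 over both lines and passed no test.

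The MCM ring moved unevenly: Mcm3, Mcm5 and Mcm7 rose in both lines with and without the GC offset, and Mcm4 fell in both without it. The 6 proteins form a ring with 1 copy of each, which is the core of the replicative helicase. Mcm5 had 166, 228 and 192 CPM in FHL2 cells at day 2, against 56.2, 54.9 and 58.6 CPM at day 0. In control cells Mcm5 had 159.7, 157 and 160.4 CPM at day 2, against 53.1, 58.0 and 56.9 CPM at day 0. Each day 2 library held more than 2 times the Mcm5 level of any day 0 library. Its log2 change was 1.78 ± 0.11 (adjusted p = 2.22e-08) in FHL2 cells and 1.51 ± 0.11 (adjusted p = 8.51e-08) in control cells, and with the offset 1.51 ± 0.11 (adjusted p = 7.37e-08) and 1.23 ± 0.11 (adjusted p = 5.94e-07). Mcm7 rose by 1.15 ± 0.10 (adjusted p = 3.70e-07) in FHL2 cells and 1.04 ± 0.10 (adjusted p = 9.15e-07) in control cells, and Mcm3 by 1.04 ± 0.12 (adjusted p = 3.91e-06) and 0.88 ± 0.12 (adjusted p = 1.81e-05). With the offset, Mcm7 rose by 0.72 ± 0.10 (adjusted p = 3.19e-05) and 0.58 ± 0.10 (adjusted p = 2.23e-04) and Mcm3 by 0.70 ± 0.11 (adjusted p = 1.71e-04) and 0.53 ± 0.11 (adjusted p = 0.00177) in FHL2 and control cells. Mcm2 had 105, 119 and 112 CPM in FHL2 cells at day 2, against 60.0, 73.2 and 77.0 CPM at day 0. Control cells had 136, 131 and 108 CPM of Mcm2 at day 2, against 66.7, 60.4 and 64.1 CPM at day 0. No day 2 library overlapped the day 0 libraries of its line. Mcm2 rose by 0.68 ± 0.12 (adjusted p = 2.79e-04) in FHL2 cells and 0.97 ± 0.12 (adjusted p = 1.13e-05) in control cells, but with the offset its change was 0.10 ± 0.13 (adjusted p = 0.598) in FHL2 cells and 0.36 ± 0.13 (adjusted p = 0.0409) in control cells. The offset value in control cells missed the threshold without any 1 of 7 libraries, all but day 2 replicate 3 of the control libraries and day 0 replicates 2 and 3 of the FHL2 cells, at 0.31 to 0.42 and adjusted p values up to 0.135. It also missed the threshold when replicate number was added to the fit with the offset (0.36, adjusted p = 0.0589). Mcm4 had 28.3, 36.6 and 41.6 CPM in FHL2 cells at day 2, against 72.7, 60.2 and 74.0 CPM at day 0. The control libraries had 39.0, 45.6 and 48.8 CPM at day 2, against 87.5, 71.1 and 66.2 CPM at day 0. All day 2 libraries were lower than all day 0 libraries in both lines. Its log2 change was -0.96 ± 0.17 (adjusted p = 1.95e-04) in FHL2 cells and -0.75 ± 0.16 (adjusted p = 0.00129) in control cells, and with the offset -0.16 ± 0.17 (adjusted p = 0.492) and 0.10 ± 0.17 (adjusted p = 0.685), so that its sign turned in control cells. Mcm6 rose in FHL2 cells, by 0.34 ± 0.12 (adjusted p = 0.0249), and had a change of 0.13 ± 0.12 (adjusted p = 0.364) in control cells. With the offset Mcm6 rose in both, by 0.80 ± 0.12 (adjusted p = 1.28e-04) and 0.62 ± 0.12 (adjusted p = 0.00117). Its call in FHL2 cells without the offset was lost when any FHL2 library other than day 2 replicate 1 was left out, at 0.3 to 0.35 and adjusted p values of 0.0596 to 0.091, or when low counts were not filtered (0.31, adjusted p = 0.111).

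**Figure D3:**
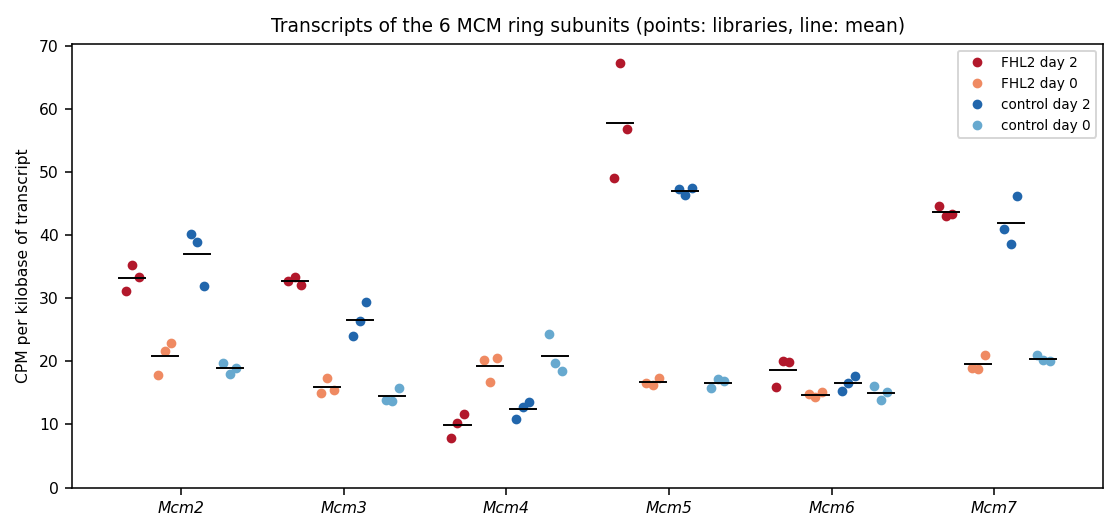
Level of the 6 MCM subunits in CPM per kb of transcript, without GC correction, in the 4 groups, with a point for each library and a line at the mean of the 3 libraries. At day 2 Mcm5 stands highest and Mcm4 lowest in both lines, while at day 0 the 6 subunits lie between 14.5 and 20.9 CPM per kb.

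Per kb of transcript, the levels of the 6 subunits spanned a narrower range at day 0 than at day 2, both without and with the GC correction. Without the correction they ranged at day 0 from 14.8 ± 0.412 CPM per kb (Mcm6) to 20.8 ± 2.65 (Mcm2) in FHL2 cells and from 14.5 ± 1.15 (Mcm3) to 20.9 ± 3.11 (Mcm4) in control cells (SD, n = 3 libraries). At day 2 they ranged from 9.89 ± 1.87 (Mcm4) to 57.7 ± 9.21 (Mcm5) in FHL2 cells and from 12.4 ± 1.39 (Mcm4) to 47.0 ± 0.588 (Mcm5) in control cells. Mcm4 has the lowest GC content of the ring, 45.5%, and Mcm2 the highest, 55.5%. With the correction the range was wider at day 0, from 12.6 ± 0.402 CPM per kb (Mcm6) to 25.5 ± 3.34 (Mcm2) in FHL2 cells and from 12.7 ± 0.966 (Mcm6) to 23.8 ± 1.14 (Mcm7) in control cells. At day 2 it was narrower, from 13.1 ± 2.86 (Mcm4) to 52.6 ± 7.97 (Mcm5) in FHL2 cells and from 16.6 ± 2.25 (Mcm4) to 42.6 ± 0.358 (Mcm5) in control cells. The correction moves both days toward the mean of all 12 libraries along GC content. Any GC effect that all libraries share stays in the corrected levels, so these ranges are not free of it.

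Among the genes that activate the helicase, Gins3 fell in both lines and Cdc45 rose in FHL2 cells. Cdc45, the partner that completes the helicase, had 15.9, 18.6 and 28.5 CPM in FHL2 cells at day 2, against 11.3, 13.7 and 12.7 CPM at day 0. The level in control cells was 19.7, 20.2 and 17.4 CPM at day 2, against 13.8, 15.5 and 13.9 CPM at day 0. The days did not overlap in either line. The log2 change of Cdc45 was 0.74 ± 0.23 (adjusted p = 0.0133) in FHL2 cells and 0.41 ± 0.23 (adjusted p = 0.148) in control cells, and with the offset 0.86 ± 0.23 (adjusted p = 0.00839) and 0.53 ± 0.23 (adjusted p = 0.0848). The rise in FHL2 cells missed the threshold without day 2 replicate 3 (0.47, adjusted p = 0.087) or day 0 replicate 1 (0.66, adjusted p = 0.0604), and the interaction, the difference between the lines' changes, was 0.34 ± 0.32 (adjusted p = 0.896). Gins3, a subunit of the 4-protein GINS complex, had 3.61, 7.08 and 7.45 CPM in FHL2 cells at day 2, against 11.7, 12.8 and 12.9 CPM at day 0. Its control values were 3.45, 4.78 and 5.63 CPM at day 2, against 12.8, 11.9 and 12.8 CPM at day 0. Every day 2 library was lower, with log2 changes of -1.04 ± 0.32 (adjusted p = 0.0124) in FHL2 cells and -1.44 ± 0.33 (adjusted p = 0.00165) in control cells. With the offset the change was -0.69 ± 0.32 (adjusted p = 0.105) in FHL2 cells and -1.08 ± 0.33 (adjusted p = 0.0178) in control cells, where it missed the threshold without day 2 replicate 1 (-0.89, adjusted p = 0.0707), day 0 replicate 1 (-1.07, adjusted p = 0.0552) or day 0 replicate 3 (-1.05, adjusted p = 0.058). The other GINS subunits gave other values. Gins4 averaged 49.2 ± 15.1 CPM in FHL2 cells at day 2 and 46.4 ± 1.93 CPM at day 0, and 33.8 ± 8.56 CPM and 40.1 ± 1.87 CPM in control cells at those days (SD, n = 3 libraries), and passed neither test. Gins2 passed only in FHL2 cells with the offset, at -0.74 ± 0.23 (adjusted p = 0.0189), against -0.31 ± 0.23 (adjusted p = 0.275) without it, and that call was lost without FHL2 day 2 replicate 1 (-0.61, adjusted p = 0.0576), day 0 replicate 1 (-0.68, adjusted p = 0.0735) or day 0 replicate 3 (-0.68, adjusted p = 0.0718). Gins1 had at most 3.75 CPM in any library and no count in FHL2 day 2 replicate 2 and control day 2 replicate 3. Mcm10, which helps to start unwinding, lay at 7.03 to 13.4 CPM in all 12 libraries and passed no test.

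The primase and polymerase genes split by subunit: Pold1, Pold2 and Pola2 rose and Pola1 and Prim1 fell in both lines without the GC offset, and with it Pold1 alone passed. Pold1, the catalytic subunit of polymerase delta, had 29.3, 44.2 and 33.7 CPM in FHL2 cells at day 2, against 12.7, 12.1 and 13.5 CPM at day 0. Control cells held 39.6, 37.0 and 51.5 CPM at day 2, against 11.6, 11.7 and 17.0 CPM at day 0. The days were far apart in both lines. Pold1 rose by 1.48 ± 0.22 (adjusted p = 4.37e-05) in FHL2 cells and 1.67 ± 0.22 (adjusted p = 1.53e-05) in control cells, and, at the highest GC content of the 41 genes (60.7%), still by 0.76 ± 0.19 (adjusted p = 0.00524) and 0.87 ± 0.19 (adjusted p = 0.00206) with the offset. Its partner Pold2 rose by 1.03 ± 0.15 (adjusted p = 4.05e-05) in FHL2 cells and 0.84 ± 0.15 (adjusted p = 2.47e-04) in control cells, and with the offset its change was 0.35 ± 0.14 (adjusted p = 0.0569) and 0.11 ± 0.14 (adjusted p = 0.586). Pola1, the catalytic subunit of polymerase alpha, had 6.31, 3.19 and 3.94 CPM in FHL2 cells at day 2, against 27.5, 24.6 and 21.2 CPM at day 0. In control cells it had 3.8, 3.67 and 9.30 CPM at day 2, against 32.6, 29.9 and 15.8 CPM at day 0. No day 2 library reached the lowest day 0 library. The log2 change of Pola1, which has the lowest GC content of the 41 genes (41.5%), was -2.45 ± 0.40 (adjusted p = 1.11e-04) in FHL2 cells and -2.25 ± 0.40 (adjusted p = 2.23e-04) in control cells. With the offset it was -0.93 ± 0.36 (adjusted p = 0.0576) and -0.50 ± 0.37 (adjusted p = 0.305), past the threshold in neither. Pola2, the accessory subunit of the same polymerase, had 46.4, 30.3 and 54.1 CPM in FHL2 cells at day 2, against 24.3, 25.9 and 25.9 CPM at day 0. Control cells had 40.8, 49.8 and 33.1 CPM at day 2, against 30.2, 27.5 and 28.5 CPM at day 0. All day 2 libraries were higher, with changes of 0.78 ± 0.20 (adjusted p = 0.0046) in FHL2 cells and 0.52 ± 0.20 (adjusted p = 0.0406) in control cells, and of 0.25 ± 0.22 (adjusted p = 0.395) and -0.03 ± 0.22 (adjusted p = 0.925) with the offset. The call in control cells was lost without any 1 of 8 libraries, all 3 of FHL2 cells at day 0, all 3 of control cells at day 0 and day 2 replicates 1 and 2 of control cells, at 0.39 to 0.55 and adjusted p values up to 0.155.

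Prim1, the catalytic subunit of primase, had 6.17, 13.9 and 12 CPM in FHL2 cells at day 2, against 24.0, 19.8 and 19.4 CPM at day 0. The control libraries had 11, 9.04 and 9.20 CPM at day 2, against 26.7, 29.7 and 30.0 CPM at day 0. All day 2 libraries were lower, with log2 changes of -0.98 ± 0.26 (adjusted p = 0.00528) in FHL2 cells and -1.56 ± 0.26 (adjusted p = 1.62e-04) in control cells. With the offset the change was 0.06 ± 0.27 (adjusted p = 0.876) in FHL2 cells, where its sign turned, and -0.47 ± 0.27 (adjusted p = 0.187) in control cells. An offset on both GC content and transcript length gave -0.34 ± 0.25 (adjusted p = 0.305) and -0.78 ± 0.25 (adjusted p = 0.0231) in those lines. Prim2, Pole and Pole2, the regulatory primase subunit and the catalytic and accessory subunits of polymerase epsilon, passed no test in either line with or without the GC offset.

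In the clamp and its loader, Rfc2 and Rfc5 rose and Rfc1 fell in both lines with and without the offset, while the clamp Pcna rose only with it. Rfc1, the large subunit of the clamp loader, had 29.0, 38.3 and 30.2 CPM in FHL2 cells at day 2, against 99.7, 93.1 and 87.5 CPM at day 0. The level in control cells was 25.6, 35.1 and 45.2 CPM at day 2, against 112, 101 and 86.8 CPM at day 0. The highest day 2 library lay far below the lowest day 0 library in both lines. The log2 change of Rfc1 was -1.52 ± 0.18 (adjusted p = 7.70e-06) in FHL2 cells and -1.51 ± 0.19 (adjusted p = 8.47e-06) in control cells, and with the offset -0.92 ± 0.18 (adjusted p = 9.89e-04) and -0.86 ± 0.18 (adjusted p = 0.00169). Rfc2, a small subunit, had 42.3, 63.0 and 76.7 CPM in FHL2 cells at day 2, against 27.5, 27.1 and 27.4 CPM at day 0. Its control values were 57.8, 59.3 and 47.8 CPM at day 2, against 26.6, 25.1 and 28.3 CPM at day 0. The days did not overlap. Rfc2 rose by 1.15 ± 0.19 (adjusted p = 1.06e-04) in FHL2 cells and 1.05 ± 0.19 (adjusted p = 2.47e-04) in control cells, and by 1.08 ± 0.18 (adjusted p = 3.09e-04) and 0.97 ± 0.18 (adjusted p = 7.74e-04) with the offset. Rfc5 rose by 0.69 ± 0.23 (adjusted p = 0.0203) in FHL2 cells and 0.87 ± 0.23 (adjusted p = 0.00515) in control cells, but the call in FHL2 cells was lost without day 2 replicate 3 (0.38, adjusted p = 0.137), day 0 replicate 2 (0.65, adjusted p = 0.0682) or day 0 replicate 3 (0.64, adjusted p = 0.0692). With the offset Rfc5 rose by 0.79 ± 0.23 (adjusted p = 0.013) in FHL2 cells and 0.98 ± 0.23 (adjusted p = 0.00368) in control cells, and the same 3 omissions took the FHL2 value to 0.48 to 0.76 with adjusted p values of 0.0515 to 0.0786. Rfc4, with a GC content of 43.5%, had a change of 0.08 ± 0.32 (adjusted p = 0.854) in FHL2 cells and 0.06 ± 0.32 (adjusted p = 0.894) in control cells, and rose only with the offset, by 1.25 ± 0.34 (adjusted p = 0.00969) and 1.34 ± 0.35 (adjusted p = 0.00708). With the offset on GC content and length the FHL2 value was 0.74 (adjusted p = 0.0959), no longer past the threshold. Rfc3 passed neither test.

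Pcna, the sliding clamp and a common marker of proliferating cells, had 38.5, 38.3 and 61.9 CPM in FHL2 cells at day 2, against 55.7, 49.7 and 54.2 CPM at day 0. Control cells held 43.1, 46.4 and 53.7 CPM at day 2, against 49.8, 56.9 and 57.0 CPM at day 0. The days overlapped in both lines, with log2 changes of -0.20 ± 0.18 (adjusted p = 0.352) in FHL2 cells and -0.20 ± 0.18 (adjusted p = 0.368) in control cells. Pcna has a GC content of 45.3%, and its levels after the GC correction were 49.4, 52.0 and 84.7 CPM in FHL2 cells at day 2, against 40.5, 37.9 and 42.0 CPM at day 0. In control cells the corrected levels were 56.9, 61.8 and 74.8 CPM at day 2, against 34.9, 40.8 and 45.1 CPM at day 0. Corrected levels did not overlap between the days, and the change was 0.63 ± 0.19 (adjusted p = 0.0172) in FHL2 cells and 0.68 ± 0.19 (adjusted p = 0.0119) in control cells. The offset on GC content and length gave 0.23 ± 0.15 (adjusted p = 0.25) and 0.39 ± 0.15 (adjusted p = 0.0524), neither past the threshold. Without FHL2 day 2 replicate 3 the GC value in FHL2 cells was 0.35 (adjusted p = 0.0883), without FHL2 day 0 replicate 2 it was 0.58 (adjusted p = 0.0671), and without control day 0 replicate 1 that in control cells was 0.58 (adjusted p = 0.0627).

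Rpa1 and Rpa2, the members among the 3 subunits of the single-strand binding protein, rose in both lines with and without the offset. Rpa3, the small subunit, is read below with the other fork genes. Rpa2, its middle subunit, had 27.5, 17.5 and 33.5 CPM in FHL2 cells at day 2, against 13.1, 11.7 and 13.9 CPM at day 0. In control cells it had 25.9, 20.3 and 28.7 CPM at day 2, against 12.1, 11.2 and 13.0 CPM at day 0. The days did not overlap in either line. Rpa2 rose by 1.02 ± 0.24 (adjusted p = 0.0022) in FHL2 cells and 1.04 ± 0.24 (adjusted p = 0.00197) in control cells, and by 0.81 ± 0.24 (adjusted p = 0.0137) and 0.81 ± 0.24 (adjusted p = 0.0142) with the offset. The offset calls were lost in FHL2 cells without day 2 replicate 3 (0.6, adjusted p = 0.0624) or day 0 replicate 2 (0.74, adjusted p = 0.062) and in control cells without day 0 replicate 2 (0.76, adjusted p = 0.0585). Rpa1, the large subunit, rose by 0.70 ± 0.13 (adjusted p = 2.74e-04) in FHL2 cells and 0.80 ± 0.13 (adjusted p = 8.61e-05) in control cells, and by 0.88 ± 0.13 (adjusted p = 7.46e-05) and 0.99 ± 0.13 (adjusted p = 2.83e-05) with the offset. Fen1 and Lig1 finish Okazaki fragments. Fen1, the flap endonuclease, rose in control cells, by 0.68 ± 0.23 (adjusted p = 0.0225), with 0.50 ± 0.23 (adjusted p = 0.0849) in FHL2 cells and an interaction of -0.18 ± 0.33 (adjusted p = 0.958). Its call was lost without control day 0 replicate 1 (0.71, adjusted p = 0.0527), day 0 replicate 2 (0.57, adjusted p = 0.103) or day 2 replicate 1 (0.66, adjusted p = 0.0554) and without a filter on low counts (0.65, adjusted p = 0.0715), and with the offset its change was 0.03 ± 0.23 (adjusted p = 0.939) in FHL2 cells and 0.19 ± 0.23 (adjusted p = 0.56) in control cells. Lig1, the ligase that seals the fragments, had changes of 0.44 ± 0.21 (adjusted p = 0.0968) in FHL2 cells and 0.46 ± 0.22 (adjusted p = 0.0794) in control cells.

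**Figure D4:**
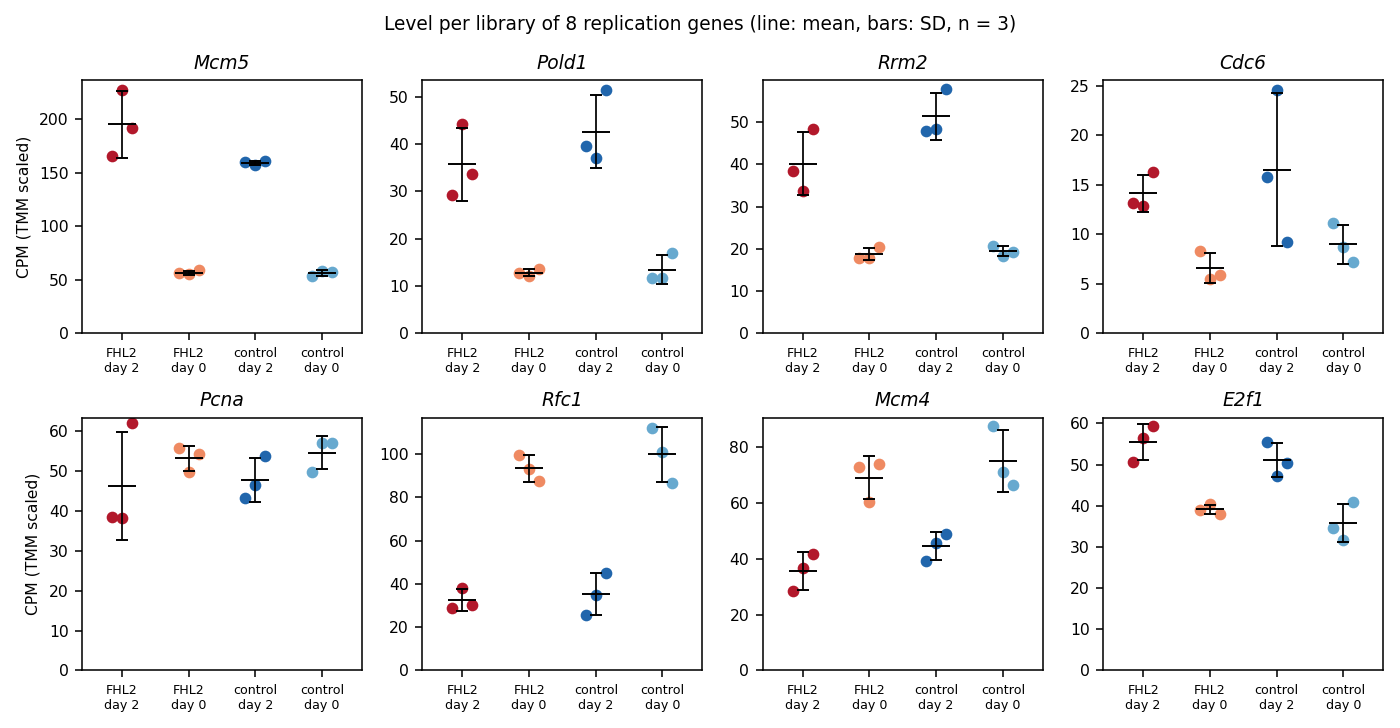
Levels of 8 of the genes in CPM (linear axes from 0) in each library, with the mean and SD of the 3 libraries of a group, ordered FHL2 day 2, FHL2 day 0, control day 2, control day 0. For Mcm5, Pold1 and Rrm2 every day 2 library lies above the day 0 libraries of its line, for Rfc1 and Mcm4 every one lies below, and for Pcna the days overlap.

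In deoxynucleotide supply, Rrm2 and Tk1 rose in both lines with and without the offset, and with it all 4 genes rose in both lines. Rrm2, the small subunit of ribonucleotide reductase, had 38.4, 33.7 and 48.4 CPM in FHL2 cells at day 2, against 17.9, 17.8 and 20.4 CPM at day 0. Control cells had 47.8, 48.4 and 57.9 CPM at day 2, against 20.6, 18.3 and 19.3 CPM at day 0. The lowest day 2 library stood above the highest day 0 library in both lines. Rrm2 rose by 1.11 ± 0.17 (adjusted p = 5.95e-05) in FHL2 cells and 1.40 ± 0.17 (adjusted p = 6.96e-06) in control cells, and by 1.80 ± 0.18 (adjusted p = 1.96e-06) and 2.14 ± 0.18 (adjusted p = 3.63e-07) with the offset, the largest corrected rise of the 41 genes in each line. Rrm1, the large subunit of the same enzyme, had 117, 96.1 and 142 CPM in FHL2 cells at day 2, against 99.0, 102 and 119 CPM at day 0. In control cells Rrm1 had 104, 117 and 92.5 CPM at day 2, against 116, 100 and 104 CPM at day 0. The days overlapped in both lines, and the changes were 0.15 ± 0.14 (adjusted p = 0.378) in FHL2 cells and -0.03 ± 0.14 (adjusted p = 0.884) in control cells. After the GC correction (GC content 44.4%) Rrm1 had 159, 139.8 and 209 CPM in FHL2 cells at day 2, against 66.7, 73.6 and 87.2 CPM at day 0. The corrected levels in control cells were 145, 168 and 139.8 CPM at day 2, against 74.4, 66.2 and 78.6 CPM at day 0. Corrected levels did not overlap, and the corrected change was 1.16 ± 0.15 (adjusted p = 2.40e-05) in FHL2 cells and 1.05 ± 0.15 (adjusted p = 6.23e-05) in control cells, so that its sign turned in control cells. Tk1, the thymidine kinase of the cytosol, had 22.7, 32.2 and 44.4 CPM in FHL2 cells at day 2, against 13.5, 11.3 and 9.54 CPM at day 0. The control libraries had 30.9, 31.4 and 43.9 CPM at day 2, against 11.7, 14.2 and 15.2 CPM at day 0. All day 2 libraries were higher. Tk1 rose by 1.53 ± 0.25 (adjusted p = 1.37e-04) in FHL2 cells and 1.37 ± 0.25 (adjusted p = 3.36e-04) in control cells, and by 0.95 ± 0.24 (adjusted p = 0.00632) and 0.76 ± 0.24 (adjusted p = 0.0237) with the offset. The corrected call in control cells was lost without day 0 replicate 1 (0.67, adjusted p = 0.0963), 2 (0.79, adjusted p = 0.0581) or 3 (0.8, adjusted p = 0.053) or day 2 replicate 3 (0.68, adjusted p = 0.0532). Tyms, thymidylate synthase, rose by 0.41 ± 0.17 (adjusted p = 0.0498) in FHL2 cells and had a change of 0.18 ± 0.17 (adjusted p = 0.396) in control cells, with an interaction of 0.23 ± 0.24 (adjusted p = 0.896). That call was lost without any 1 of 8 libraries, each FHL2 library but day 2 replicate 1 and each control day 0 library, at 0.32 to 0.46 and adjusted p values up to 0.149, and also with relative log expression scaling (0.39, adjusted p = 0.0572), without a filter on low counts (0.38, adjusted p = 0.152) and with only the FHL2 libraries fitted (0.45, adjusted p = 0.0649). With the offset Tyms rose by 0.78 ± 0.17 (adjusted p = 0.00205) in FHL2 cells and 0.56 ± 0.17 (adjusted p = 0.0172) in control cells, where it missed the threshold without day 0 replicate 1 (0.55, adjusted p = 0.0595) or 3 (0.55, adjusted p = 0.0584).

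Uhrf1 and E2f1 rose in both lines only without the offset. Uhrf1, which reads hemimethylated DNA behind the fork and recruits the maintenance methyltransferase, had 53.7, 65.8 and 65.9 CPM in FHL2 cells at day 2, against 37.5, 39.5 and 37.8 CPM at day 0. The level in control cells was 63.1, 60.0 and 45.7 CPM at day 2, against 38.3, 37.1 and 36.5 CPM at day 0. No day 2 library overlapped the day 0 libraries. Uhrf1 rose by 0.69 ± 0.14 (adjusted p = 8.17e-04) in FHL2 cells and 0.60 ± 0.14 (adjusted p = 0.00252) in control cells, with 0.24 ± 0.15 (adjusted p = 0.226) and 0.12 ± 0.15 (adjusted p = 0.551) after the offset. E2f1, the activating transcription factor, had 50.7, 56.5 and 59.4 CPM in FHL2 cells at day 2, against 38.9, 40.4 and 38.1 CPM at day 0. Its control values were 55.5, 47.3 and 50.4 CPM at day 2, against 34.7, 31.8 and 41 CPM at day 0. All day 2 libraries were higher. The log2 change of E2f1, whose GC content is 58.3%, was 0.51 ± 0.13 (adjusted p = 0.0053) in FHL2 cells and 0.51 ± 0.14 (adjusted p = 0.00493) in control cells, and with the offset -0.17 ± 0.13 (adjusted p = 0.337) and -0.21 ± 0.13 (adjusted p = 0.228), so that its sign turned in both. Ung, the glycosylase that takes uracil out of new DNA, lay at 1.62 to 6.23 CPM in all libraries and passed no test.

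Genes with and without an E2F word had close medians of the day change. The median log2 change in FHL2 cells was 0.56 for the 14 genes with a word (8 rose and 2 fell) and 0.58 for the 20 with a window but no word (11 rose and 3 fell), and in control cells it was 0.53 (7 rose and 2 fell) and 0.52 (10 rose and 3 fell). Of all genes tested, 25.8% rose and 30.2% fell in FHL2 cells, and 26.3% rose and 30.8% fell in control cells. With the GC offset the FHL2 medians were 0.43 with a word (6 rose, 0 fell) and 0.49 without (10 rose, 1 fell). In control cells they were 0.40 with a word (6 rose, 1 fell) and 0.51 without (10 rose, 1 fell). The shares of all genes were then 20.3% and 18.0% in FHL2 cells and 20.4% and 17.5% in control cells. Of the genes printed above, Mcm5 and Pola1 both held a word and moved in opposite directions without the offset.

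Ordered by level per kb of transcript without the GC correction, Pold2, Mcm5 and Mcm7 led at day 2 in both lines. In FHL2 cells at day 2 they had 79.0 ± 13.8, 57.7 ± 9.21 and 43.7 ± 0.879 CPM per kb (SD, n = 3 libraries), and in control cells 61.3 ± 10.6, 47.0 ± 0.588 and 41.9 ± 3.89. Pola1, Orc1, Gins1 and Pole2 stood lowest in FHL2 cells at day 2, at 0.838 ± 0.305, 1.01 ± 0.823, 1.08 ± 0.961 and 1.08 ± 0.651 CPM per kb, in an order that these SDs do not resolve. At day 0 Pold2 (38.6 ± 2.7), Pcna (35.1 ± 2.06) and Gins4 (34.4 ± 1.43) led in FHL2 cells, and Pcna (36.0 ± 2.71), Pold2 (34.2 ± 3.41) and Gins4 (29.7 ± 1.39) in control cells. Pold2 and Pcna at day 0 stood within 1 SD of each other's level in control cells, and their order there is not resolved. The same holds for Pcna and Gins4 in FHL2 cells at day 0. The order changed with the GC correction, which moves both days toward the mean of all 12 libraries along GC content. It leaves any GC effect shared by all libraries, so corrected orders within a day are not free of GC content. Corrected, Pold2 (49.3 ± 2.7), Gins4 (35.9 ± 1.45) and Pcna (26.5 ± 1.37) led at day 0 in FHL2 cells, and the same genes (43.6 ± 2.59, 31.1 ± 1.27 and 26.5 ± 3.37) in control cells. At day 2 corrected levels were highest for Pold2 (62.9 ± 11.5), Mcm5 (52.6 ± 7.97) and Rrm1 (42.3 ± 8.87) in FHL2 cells and for Pold2 (47.0 ± 6.76), Mcm5 (42.6 ± 0.358) and Pcna (42.5 ± 6.07) in control cells. In FHL2 cells Pcna followed at 40.8 ± 13.0. These SDs do not resolve Pold2 from Mcm5 or Rrm1 from Pcna in FHL2 cells, nor the order of the 3 genes in control cells.

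Between the lines, no replication gene passed the test at either day. At day 2, 0 of the 41 genes were called, where 0.72% of all genes were higher and 1.35% lower in FHL2 cells than in control cells, and at day 0 again 0 were called, where 0.0208% were higher and 0.0277% lower. DESeq2 and limma-voom also called 0 of the 41 at each day. DESeq2 called 3.05% of all genes higher and 3.86% lower at day 2, and 0.222% and 0.388% at day 0. The limma-voom shares were 0.665% and 1.47% at day 2, and 0.0346% and 0.0901% at day 0. At an unadjusted p under 0.05 there were 6 of the 41 genes at day 2, where 2611 of all 14435 genes had one. At day 0 there were 0, where 600 of all 14435 genes had one. The log2 differences lay between -0.5 and 0.54 at day 2 and between -0.46 and 0.5 at day 0. The 95% intervals lay within 1 log2 unit of 0 for 34 of the 41 genes at day 2 and for 36 at day 0, so for those genes a 2-fold difference lies outside the interval, and for the rest it does not. These intervals pool the spread of both days, which was 0.39 at day 2 and 0.12 at day 0. They may therefore be too narrow at day 2 and too wide at day 0. With only the compared groups fitted, 0.897% of all genes were higher and 0.854% lower at day 0. At day 2 these shares were 0.0624% and 0.242%.

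The 6 genes at day 2 with an unadjusted p under 0.05 were Gins4, Tyms, Pold2, Mcm3 and Mcm5, higher in FHL2 libraries, and Gins2, lower in them. Their share of the 41 was no higher than that of all genes given above. They were picked by p-value, so a lack of overlap between their libraries is no separate support. The 3 FHL2 libraries at day 2 had 166, 228 and 192 CPM of Mcm5, against 159.7, 157 and 160.4 CPM in control cells, and the lines did not overlap. The difference was 0.30 ± 0.11 (adjusted p = 0.173) with an interval of 0.06 to 0.53. Mcm3 had 99.0, 101 and 97.1 CPM in FHL2 cells at day 2, against 72.7, 80.2 and 89.1 CPM in control cells, again without overlap, and differed by 0.30 ± 0.12 (adjusted p = 0.191). Gins2 had 8.95, 11 and 11.9 CPM in FHL2 cells at day 2, against 16.8, 13.3 and 14.9 CPM in control cells, without overlap, and differed by -0.50 ± 0.23 (adjusted p = 0.265). The differences of Gins4, Tyms and Pold2 were 0.54 ± 0.22 (adjusted p = 0.218), 0.39 ± 0.17 (adjusted p = 0.238) and 0.37 ± 0.15 (adjusted p = 0.206), with overlapping libraries. At day 0 Mcm5 differed by 0.02 ± 0.11 (adjusted p = 1), with an interval of -0.22 to 0.25. With the GC offset 5 of the 41 genes had an unadjusted p under 0.05 at day 2, where 2686 of all 14435 genes had one. The lowest adjusted p of the 41 was then 0.119. The 3 day 2 libraries that had counts for the fewest genes were FHL2 replicates 1 and 2 and control replicate 3. Without them, the log2 differences at day 2 were 0.57 for Gins4 and 0.56 for Tyms, while those of the other genes of the 6 are not given here. That fit rests on 1 FHL2 library at day 2, assumed to vary like the other groups, so no p-values are given.

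**Figure D5:**
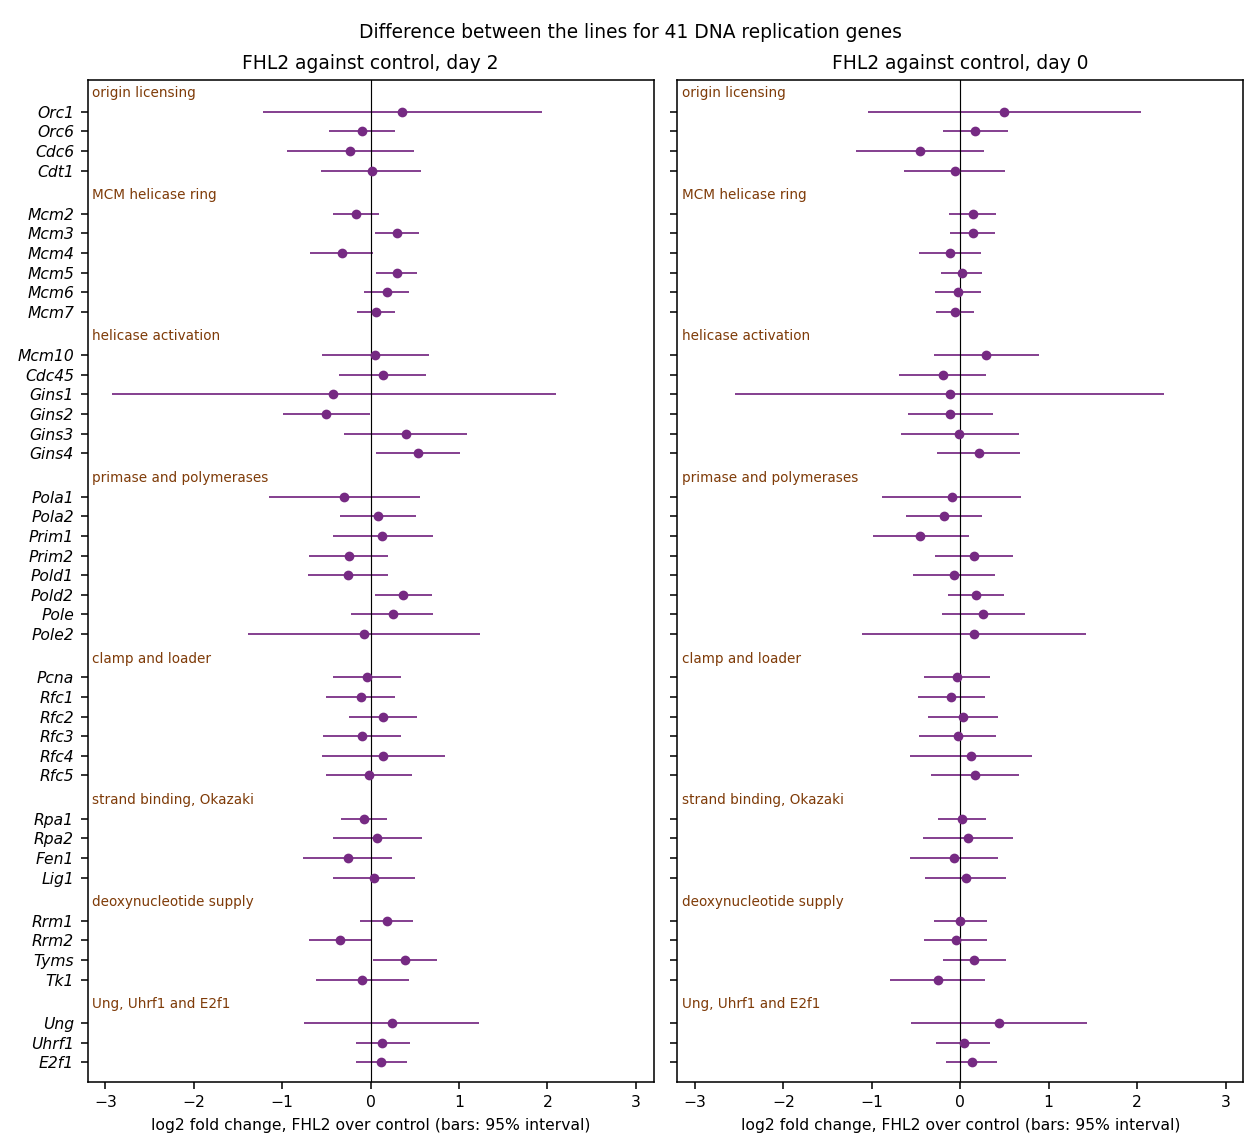
Log2 difference between FHL2 cells and control cells of the 41 genes at day 2 (left) and day 0 (right), with 95% intervals, grouped by role. No gene passed the test at either day. The points lie between -0.5 and 0.54 at day 2 and between -0.46 and 0.5 at day 0.

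No gene of the 41 passed the test for a day change that differs between the lines. The interaction called 0 of them, where 0.0% of all genes were called higher and 0.00693% lower. Of the 41, 0 had an unadjusted p under 0.05, where 996 of all 14435 genes had one. DESeq2 and limma-voom also called 0 of the 41, where DESeq2 called 0.215% of all genes higher and 0.242% lower. The limma-voom shares were 0% and 0.00693%. Interaction values ranged from -0.41 (Prim2) to 0.58 (Prim1), with a lowest adjusted p of 0.776 (Mcm5, 0.28, interval -0.05 to 0.61). For 27 of the 41 genes the interval lay within 1 log2 unit of 0.

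Other genes of the pathway, given as lists and read from the same fits, were called in both directions. The shares of all genes for these counts are those given above, 25.8% that rose and 30.2% that fell in FHL2 cells and 26.3% and 30.8% in control cells, and under the GC offset 20.3% and 18.0% in FHL2 cells and 20.4% and 17.5% in control cells. Of 35 other fork and origin genes, 4 rose (11.4%) and 12 fell (34.3%) in FHL2 cells and 7 rose (20%) and 13 fell (37.1%) in control cells, so the share that fell was near that of all genes. With the offset 7 rose and 3 fell in FHL2 cells and 6 rose and 2 fell in control cells. Orc4, an origin complex subunit with a GC content of 36.8%, fell by 2.59 in FHL2 cells and by 2.55 in control cells without the offset, and with it had changes of -0.28 and 0.08 that did not pass. Dbf4, the partner of the kinase Cdc7 that fires origins, fell by 2.38 in FHL2 cells and by 1.86 in control cells, and with the offset the change was -1.37 (adjusted p = 0.013) in FHL2 cells and -0.8 (adjusted p = 0.123) in control cells. Atad5, which unloads the clamp, fell by 2.41 in FHL2 cells and by 2.32 in control cells, and Rnaseh2b, a subunit of ribonuclease H2, fell by 2.31 in FHL2 cells and had a change of -1.82 (adjusted p = 0.0538) in control cells. Neither passed with the offset. Rpa3 fell by 1.44 in FHL2 cells (adjusted p = 0.00419) and by 1.15 in control cells (adjusted p = 0.0149), and with the offset had changes of 0.23 (adjusted p = 0.634) and 0.67 (adjusted p = 0.135), so that its sign turned.

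Of 9 histone chaperone and chromatin copying genes, 3 rose (33.3%) and 5 fell (55.6%) in FHL2 cells and 3 rose (33.3%) and 4 fell (44.4%) in control cells, against 1 that rose and 0 that fell in each line with the offset. The largest changes in both lines were those of Atad2, Hells and the histone chaperone Asf1a, which fell by 2.4, by 2.09 and by 1.7 in FHL2 cells and by 2.83, by 2.61 and by 2.04 in control cells, and passed the test with the offset in neither. Of 10 other genes of deoxynucleotide supply, 3 rose (30%) and 4 fell (40%) in FHL2 cells and 5 rose (50%) and 5 fell (50%) in control cells, and 4 rose and 2 fell in each with the offset. Rrm2b, the ribonucleotide reductase subunit used outside S phase, fell by 1.95 in FHL2 cells and by 1.83 in control cells, and with the offset had changes of -0.09 and 0.26 that did not pass. Dck, deoxycytidine kinase, fell by 1.22 in control cells and had a change of -0.34 (adjusted p = 0.445) in FHL2 cells, while with the offset it rose by 0.94 (adjusted p = 0.0326) in FHL2 cells and had a change of 0.16 (adjusted p = 0.728) in control cells. Dut, which removes dUTP, rose by 1.15 in FHL2 cells and 1.14 in control cells, and by 1.13 and 1.11 with the offset. Dtymk, thymidylate kinase, rose by 1.04 in FHL2 cells and 0.65 in control cells, and by 1.28 and 0.91 with the offset. Of these 3 lists, only Samhd1, which breaks down deoxynucleotides, was called between the lines without the offset, with a log2 difference of -0.6 (adjusted p = 0.00653) between FHL2 and control cells at day 2.

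Of 19 E2F and pocket protein genes tested, 2 rose (10.5%) and 6 fell (31.6%) in FHL2 cells and 1 rose (5.26%) and 7 fell (36.8%) in control cells, so the share that fell was again near that of all genes. With the offset 1 rose and 1 fell in FHL2 cells and 1 rose and 2 fell in control cells. Rbl2, a pocket protein of resting cells, fell by 1.15 in FHL2 cells and by 1.08 in control cells, and with the offset by 0.64 (adjusted p = 0.00607) and by 0.54 (adjusted p = 0.0178). Rbl1, a related pocket protein, fell by 1.41 in FHL2 cells and by 1.61 in control cells, and had changes of 0.02 and -0.09 with the offset. Tfdp2, a dimer partner of E2F factors, fell by 1.18 in FHL2 cells and by 1.72 in control cells, and with the offset had a change of -0.4 (adjusted p = 0.267) in FHL2 cells and fell by 0.89 (adjusted p = 0.0204) in control cells. Rb1 fell by 2.06 in control cells and had a change of -1.39 (adjusted p = 0.0505) in FHL2 cells, with neither past the threshold under the offset.

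Of 18 mitosis genes, 10 rose (55.6%) and 4 fell (22.2%) in FHL2 cells and 6 rose (33.3%) and 6 fell (33.3%) in control cells, and with the offset 11 rose (61.1%) and 0 fell in FHL2 cells and 8 rose (44.4%) and 0 fell in control cells. The largest changes were falls of GC-poor genes. Bub1, a checkpoint kinase with a GC content of 41%, fell by 2.59 in FHL2 cells and by 2.34 in control cells, and Nusap1, a spindle protein at 41.8%, fell by 1.61 and by 2.44 in those lines. Cenpf, a kinetochore protein at 43.3%, fell by 2.5 in control cells and had a change of -0.35 (adjusted p = 0.734) in FHL2 cells. None of these 3 passed with the offset. Aurka, a mitotic kinase at 51.4%, rose by 1.51 in FHL2 cells and 1.01 in control cells, and by 1.31 and 0.8 with the offset. All 8 adipogenic induction markers rose in both lines with and without the offset. Fkbp5, a glucocorticoid target, rose by 4.07 in FHL2 cells and 3.82 in control cells, Cebpd by 3.0 and 4.1, Cebpb by 2.13 and 2.54, and Fabp4 by 4.66 and 4.08. Plin1, a lipid droplet protein, had 2.64, 6.02 and 3.82 CPM in FHL2 cells and 14.3, 18.9 and 14.1 CPM in control cells at day 2, and no count in any day 0 library.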

How the data were processed

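Polyadenylated RNA of 12 libraries was sequenced from stranded libraries, per the labels' protocols. The authors deposited raw counts per Ensembl gene identifier in 1 table, and every one of its sample columns was used. The build GRCm39 (mm39), the counter HTSeq 0.11.0, the aligner HISAT2 2.2.1, Trimmomatic 0.39 and FastQC 0.11.9 are named by the submitters' processing notes, which also list limma and R 4.1.0. Neither the annotation release nor the strand setting of the counting is given in the sources used here, so reads of overlapping or antisense genes cannot be told apart. Symbols were found for 52081 of the 55414 identifiers.

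Counts were filtered (filterByExpr), scaled (TMM) and fitted in edgeR 4.0.16 under R 4.3.3 with the quasi-likelihood test, 1 mean per group over all 12 libraries. P-values are 2-sided and adjusted by the Benjamini-Hochberg method over 14435 genes, and an adjusted p under 0.05 made a call. The GC offset is a loess curve (span 0.5) on GC content, fitted on genes averaging 5 CPM or more. The fitted value is each library's deviation in log2(CPM + 0.5) from the mean of all 12 libraries. GC content and length come from the longest coding transcript in GENCODE M21 (GRCm38) and were known for 99.8% of the genes tested. The scripts were tested on simulated counts with a single spread for all libraries. That spread was smaller than that of the day 2 libraries, so the simulation does not cover them.

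Labels do not say that the 3 libraries of a group are separate cultures, so p-values measure only the spread between these libraries, which may be technical. The main fit did not pair libraries by replicate number, since the labels do not say what these numbers mean. Depth limits precision through counting error, which is included in the fitted errors. The members and gene lists were chosen with earlier results of these data known. Values in every library are given for 10 genes picked by name, for the called members with the largest rise and fall of each role and for members whose called direction turned with the GC offset, and the other pathway and induction lists give at most 3 genes per list and day comparison, the called genes of at least 5 CPM with the largest change. Rpa3 was added after its values were seen, and a gene this names in 1 line is given in both. Alternatives were DESeq2 1.42.0, limma-voom 3.58.1, other scalings and filters, a GC and length offset, a replicate block, only the groups compared, and libraries left out.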

Additional observations from a re-analysis of the deposited data

How the results depend on the processing

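Scaling by relative log expression, upper quartiles, other filters, DESeq2, limma-voom and a fit of only the groups compared gave 18 to 22 members higher in FHL2 cells and 17 to 19 in control cells, with 6 lower in each. Upper-quartile scaling moved the median change of all genes to -0.03 in FHL2 cells and -0.04 in control cells, and limma-voom gave -0.26 and -0.27. With the GC offset 2 members were lower in each line, with the GC and length offset 3, and with the GC offset and replicate block 2. In these 3 fits 17.3 to 18.9% of all genes were lower in FHL2 cells and 16.8 to 18.3% in control cells. Deviations of same-numbered libraries of different groups had correlations of -0.0862 to 0.105 over 18 pairs. Pairs with different numbers had -0.138 to 0.1 over 36 pairs. With 3 libraries in a group, these values cannot settle whether the numbers mark pairs. With the replicate block 19 members were higher and 6 lower in FHL2 cells and 16 higher and 6 lower in control cells. Of all genes, 24.7% were higher and 29.7% lower in FHL2 cells with the block, and 25.2% and 30.3% in control cells. Tyms in FHL2 cells and Cdc6 and Pola2 in control cells then missed the threshold. With the GC offset and the block together, Mcm2 in control cells missed it. Leaving out 1 library at a time gave 16 to 21 members higher and 6 to 8 lower in FHL2 cells, and 15 to 19 higher and 5 to 6 lower in control cells. Of all genes, 21.4 to 27.1% were higher and 26 to 32.2% lower in FHL2 cells. In control cells these shares were 21.8 to 27.3% and 25.9 to 31.5%. The same omissions gave 0 members called between the lines or in the interaction, where at most 1.04% of all genes were higher and 1.66% lower. With the GC offset they gave 13 to 19 members higher and 1 to 3 lower in each line between the days. Of all genes, 15.7 to 22.4% were then higher and 13.1 to 20.9% lower in FHL2 cells. In control cells 15.3 to 22.3% were higher and 12.3 to 18.5% lower. With the 3 day 2 libraries in which fewest genes had a count left out, 1 FHL2 library remained at day 2. Counts of called members are therefore not given for that fit. The same holds for that omission together with the GC offset, which was chosen after seeing the data.

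Signs turned with the offsets for some members. By its construction the GC offset raised the day changes of GC-poor genes and lowered those of GC-rich genes. Pola1, lowest of the 41 in GC content (41.5%), and Pold1, highest (60.7%), kept their signs with the GC offset in both lines. In the order GC offset, GC and length offset, GC offset with replicate block, the log2 changes in control cells were 0.31, 0.01 and 0.31 for Orc6, 0.1, 0.11 and 0.09 for Mcm4, -0.03, -0.04 and -0.03 for Pola2, 1.05, 1.07 and 1.06 for Rrm1, and -0.21, -0.24 and -0.21 for E2f1. Pcna had 0.68 with both GC offset alone and the block, and Pold2 had -0.01 with GC and length. In FHL2 cells E2f1 had -0.17, -0.2 and -0.17, and with the GC offset and with the block added Prim1 had 0.06 and 0.02 and Pcna 0.63 and 0.59. Depth and the wide spread at day 2 leave changes of 3 of the lowest members, Orc1, Gins1 and Pole2, poorly resolved, with 95% intervals wider than 1 log2 unit on either side.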
